A study of Mus musculus with 6 samples.

Results

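The genes described here are 8 transcripts of mast cells measured in peritoneal macrophage (PEM) preparations from mice with and without Tim-4 in myeloid cells. They were taken from the knockout against control gene table by symbol, as 8 of the 15415 genes listed there, and they comprise the granule proteases Cpa3, Cma1, Tpsb2 and Mcpt4, the receptor genes Kit, Fcer1a and Ms4a2, and the histamine-forming enzyme gene Hdc. The set was chosen because Cma1 and Tpsb2 were near absent in the knockout libraries of this same contrast, so the knockout-control differences of the 8 genes are given as a description, with no p-value. Where they are first counted against a threshold, the share of all genes past it stands beside the count.

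PEMs are cells washed from the peritoneal cavity after starch has been injected to draw in macrophages. RNA of PEMs from C57BL/6J mice was sequenced in 6 libraries. The control libraries (PEM-Control, n = 3) stand, by the study's groups, for Tim-4 fl/fl mice, which carry loxP sites around part of the gene and no Cre. The knockout libraries (PEM-CKO, n = 3) stand for the cross LysM-Cre; Tim-4 fl/fl, whose Cre is driven by the lysozyme gene Lyz2 and is known to act in macrophages, monocytes and neutrophils. The floxed allele was thus common to both groups, whereas Cre was present in the knockout group alone, and every library carries LPS as its treatment label. The genotype field of the labels gives WT for PEM-CKO and Tim-4 knockout for PEM-Control, opposite to the titles, and the titles were used for grouping. The mice were young adult males, as the study's methods state for all of its experiments. Nothing in the labels says whether libraries of a group came from separate animals, so the spread between libraries may be partly technical.

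Mast cells are tissue-resident cells of the haematopoietic lineage that sit in connective tissue and serous cavities, the peritoneal cavity among them. They store proteases, histamine and heparin-type proteoglycan in secretory granules and release them when IgE bound to the high-affinity receptor FcεRI is crosslinked by antigen, and their survival depends on stem cell factor acting through the receptor Kit. Connective tissue mast cells of the mouse are recognised by the carboxypeptidase Cpa3, the chymase-family proteases Cma1 and Mcpt4, and the tryptase Tpsb2, which are held in the granule together with serglycin and heparin.

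Mast cell genes are known targets of GATA factors and of Mitf, and the 250 bases before the transcription start of 4 of the genes are shown here because they set the near-absent proteases beside Hdc, the gene that did not follow them. The sequences are RefSeq promoters of the build GRCm38.p6, all on the minus strand and written 5′ to 3′ towards the start, with the GATA motifs TGATAA and AGATAA in capitals. The stretches are Cpa3 (carboxypeptidase A3) at chr3:20242182-20242431, Mcpt4 (a beta-chymase) at chr14:56062311-56062560, Cma1 (an alpha-chymase) at chr14:55944676-55944925 and Hdc (histidine decarboxylase) at chr2:126618679-126618928.
Cpa3: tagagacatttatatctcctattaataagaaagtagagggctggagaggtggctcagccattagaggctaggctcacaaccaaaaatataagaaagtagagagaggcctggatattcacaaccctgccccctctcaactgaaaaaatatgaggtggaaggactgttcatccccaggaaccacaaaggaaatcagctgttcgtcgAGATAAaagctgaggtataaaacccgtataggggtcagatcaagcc
Mcpt4: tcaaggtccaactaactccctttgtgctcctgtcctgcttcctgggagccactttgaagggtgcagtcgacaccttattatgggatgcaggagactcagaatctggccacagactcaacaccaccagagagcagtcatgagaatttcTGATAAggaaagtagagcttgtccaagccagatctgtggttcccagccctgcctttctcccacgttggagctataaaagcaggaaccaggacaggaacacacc
Cma1: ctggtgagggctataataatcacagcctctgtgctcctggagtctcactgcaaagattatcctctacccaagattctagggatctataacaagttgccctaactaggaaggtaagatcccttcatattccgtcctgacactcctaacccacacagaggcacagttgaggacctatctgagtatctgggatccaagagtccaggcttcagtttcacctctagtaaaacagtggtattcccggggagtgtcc
Hdc: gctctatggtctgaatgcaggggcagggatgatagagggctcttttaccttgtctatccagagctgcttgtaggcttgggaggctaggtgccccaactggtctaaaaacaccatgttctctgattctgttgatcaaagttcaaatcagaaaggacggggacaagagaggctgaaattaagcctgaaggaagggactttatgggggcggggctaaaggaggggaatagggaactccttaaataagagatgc

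The GATA motifs TGATAA and AGATAA and the E-box forms CACGTG and CATGTG, which Mitf is known to bind, were searched on both strands of the 300 bases around each RefSeq start, and 7 of the 8 genes had a promoter entry. The exception was Tpsb2. Counted from the start, Cpa3 held AGATAA at -46 to -41 and Mcpt4 held TGATAA at -103 to -98, both on the strand of the gene. Fcer1a held AGATAA on the opposite strand and, farther from the start, CATGTG, and Ms4a2 held AGATAA at 3 places. The other 3 genes with an entry, Cma1, Kit and Hdc, held none of the motifs searched, and CACGTG was in no member. Other GATA forms were not searched for, and the stretches shown hold TGATAG in Hdc and, on the opposite strand, AGATAG in Cma1. TGATAA or AGATAA was thus in 4 of 7 members, beside 18.6% of the 32851 promoters of that length in the RefSeq table. CATGTG was in 1 of 7, beside 14.2%. These counts hold for the searched forms only. These are matches of letters in a short window and not measured binding.

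The targeted gene was read first as a check of the titles. Timd4, which encodes Tim-4, measured 19.5, 12.0 and 1.19 FPKM in the controls (libraries 1 to 3) but 0.333, 0.394 and 0.246 FPKM in the knockout group. FPKM, the unit of the deposited table, is reads divided by gene length and by the counted reads of the library, so it allows levels of different genes to be compared per length. Control library 3 stood apart from the other controls in this gene, at a level nearer to the knockout range. Lyz2, the gene that carries the Cre, ranged from 7090 to 8482 FPKM in the controls and measured 41.4, 4656 and 106 FPKM in the knockout group, so knockout library 2 stood apart from the other knockout libraries. Between 36170767 and 42217558 reads on listed genes lay behind each library, and whole reads could be recovered for 100% of the values (tolerance 0.1 read).

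Transcripts of the 4 granule proteases were close to absent in the knockout libraries and clearly present in every control library. Their summed level was 36.8, 36.5 and 46.9 FPKM in control libraries 1 to 3, and 1.58, 2.01 and 1.88 FPKM in knockout libraries 1 to 3. The group means were 40.0 ± 5.90 and 1.83 ± 0.220 FPKM (SD, n = 3), a 21.9-fold difference, which rested on 1694, 1674 and 1988 reads in the controls and 80, 98 and 89 reads in the knockout libraries. The groups were separated by far more than the spread within either, and knockout library 2, with its high Lyz2, was at the same low level as the other knockout libraries. In bulk RNA, fewer mast cells and less of these RNAs per mast cell cannot be told apart.

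Cpa3 encodes a carboxypeptidase that trims peptides and is kept in the granule by its binding to heparin. It was at 7.17, 7.28 and 8.10 FPKM in control libraries 1 to 3 and at 0.418, 0.288 and 0.231 FPKM in knockout libraries 1 to 3. The controls differed among themselves by 1.13-fold only, the least of the 8 genes, and the lowest control was 17.2-fold above the highest knockout library. The means were 7.52 ± 0.509 and 0.312 ± 0.0957 FPKM (SD, n = 3), a ratio of 24.1.

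Cma1 encodes the mouse alpha-chymase, a serine protease of the granule. Its level was 10.3, 10.2 and 13.1 FPKM in control libraries 1 to 3 and 0.437, 0.608 and 0.762 FPKM in knockout libraries 1 to 3. No library of one group came near the other group, with 13.4-fold between the nearest pair. The means of 11.2 ± 1.63 and 0.602 ± 0.163 FPKM (SD, n = 3) differed 18.6-fold.

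Tpsb2, which encodes a tryptase that assembles on heparin, was the most abundant of the 8 genes in every control library. It was at 12.4, 13.9 and 20.5 FPKM in control libraries 1 to 3 and at 0.538, 0.783 and 0.765 FPKM in knockout libraries 1 to 3. Control library 3 was the highest, and even the lowest control was 15.8-fold above the highest knockout library. The means were 15.6 ± 4.29 and 0.695 ± 0.136 FPKM (SD, n = 3), a ratio of 22.4.

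Mcpt4 encodes the beta-chymase of connective tissue mast cells and had the lowest mean level of the 4 proteases in both groups. It was at 6.88, 5.08 and 5.19 FPKM in control libraries 1 to 3 and at 0.192, 0.335 and 0.123 FPKM in knockout libraries 1 to 3. Unlike the other proteases, it was highest in control library 1, and the nearest pair of libraries across the groups differed 15.2-fold. The means of 5.72 ± 1.01 and 0.217 ± 0.108 FPKM (SD, n = 3) gave a ratio of 26.4.

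**Figure D1:**
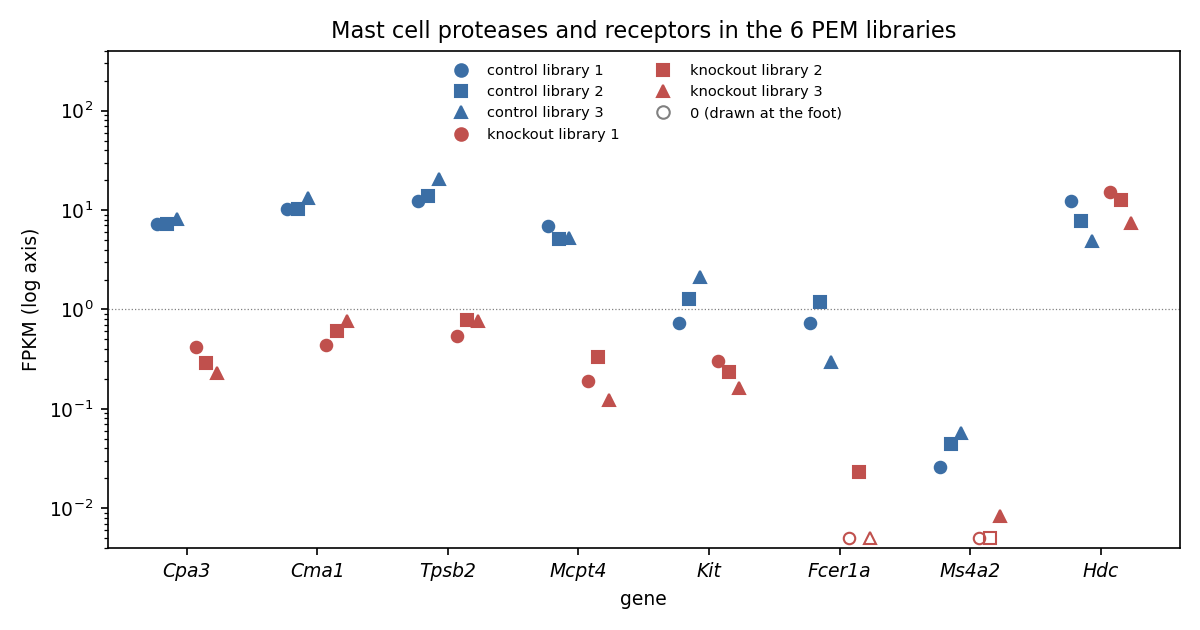
FPKM (log axis) of the 8 mast cell genes in the 3 control libraries (blue) and the 3 knockout libraries (red), 1 point per library, with a dotted line at 1 FPKM and open symbols at the foot for values of 0. The 4 proteases sit above 5 FPKM in every control library and below 1 FPKM in every knockout library, whereas the points of Hdc overlap.

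The size of the difference was alike over the 4 proteases within counting error. Over the pooled reads, scaled to library size, the control-to-knockout ratio was 24.0 for Cpa3 (exact 95% interval 18.4 to 31.8), 18.6 for Cma1 (14.9 to 23.5), 22.2 for Tpsb2 (18.2 to 27.5) and 26.3 for Mcpt4 (17.9 to 40.3). These intervals overlap one another. They cover counting error only and leave out the spread between libraries.

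The make-up of the protease transcripts was also compared, since a sum can hide a shift between its parts. Cma1 made up 28.1%, 28.1% and 28.0% of the summed FPKM of the 4 proteases in control libraries 1 to 3 and 27.6%, 30.2% and 40.5% in knockout libraries 1 to 3. Tpsb2 made up 33.7%, 38.1% and 43.7% in the controls and 34.0%, 38.9% and 40.7% in the knockout libraries. For both genes the shares of the groups overlapped, with knockout library 3 highest for Cma1. Cpa3 ranged from 17.3% to 19.9% in the controls and from 12.3% to 26.4% in the knockout libraries, and Mcpt4 from 11.1% to 18.7% and from 6.56% to 16.6%. The knockout shares were spread more widely than the control shares for Cma1, Cpa3 and Mcpt4 and less widely for Tpsb2, and each rested on far fewer reads than a control share.

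**Figure D2:**
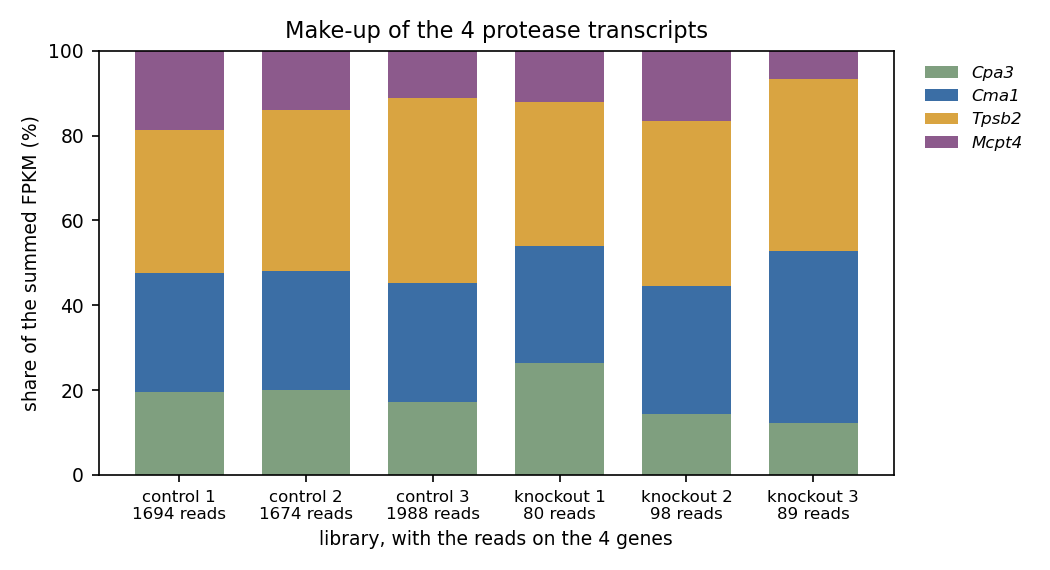
Share of the summed FPKM (%, 0 to 100) held by each of Cpa3, Cma1, Tpsb2 and Mcpt4 in each library, with the reads on the 4 genes below each bar. The control bars, on 1674 to 1988 reads, keep Cma1 near 28.0%, and Tpsb2 is the largest segment in each control bar.

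The receptor genes were lower in the knockout libraries as well, from much lower levels. Kit, the receptor for stem cell factor, was at 0.724, 1.28 and 2.10 FPKM in control libraries 1 to 3 (148, 258 and 394 reads) and at 0.303, 0.233 and 0.160 FPKM in the knockout group (66, 51 and 34 reads). The groups did not overlap, but the nearest pair differed only 2.39-fold and the controls differed among themselves 2.90-fold. The means were 1.37 ± 0.693 and 0.232 ± 0.0714 FPKM (SD, n = 3), a 5.89-fold difference. The ratio of pooled Kit reads, 5.79 (exact 95% interval 4.86 to 6.93, counting error only), lay below the intervals of all 4 proteases. Set against the protease sum, Kit came to 1.97%, 3.50% and 4.49% in control libraries 1 to 3 and to 19.1%, 11.6% and 8.52% in knockout libraries 1 to 3, so the knockout libraries held more Kit per protease transcript without overlap.

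Fcer1a and Ms4a2 encode the alpha chain of FcεRI, which binds IgE, and its beta chain, which amplifies the signal. Fcer1a gave 30, 48 and 11 reads in control libraries 1 to 3 (0.737, 1.20 and 0.295 FPKM) and 0, 1 and 0 reads in knockout libraries 1 to 3. Ms4a2 gave 3, 5 and 6 reads in the controls (0.0263, 0.0444 and 0.0574 FPKM) and 0, 0 and 1 in the knockout libraries. Every control library was above every knockout library for both genes, although Ms4a2 rested on so few reads that its level is hardly known. With 1 read in the knockout group, the ratio of pooled reads was 97.2 for Fcer1a (exact 95% interval 17.0 to 3883) and 15.3 for Ms4a2 (2.33 to 647). Fcer1a was highest in control library 2 and lowest in control library 3, which was not the order of any protease.

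Hdc, which encodes the enzyme that makes histamine from histidine, did not share the pattern. It was at 12.3, 7.72 and 4.86 FPKM in control libraries 1 to 3 (1284, 796 and 465 reads) and at 15.0, 12.6 and 7.37 FPKM in the knockout group (1673, 1406 and 798 reads). The groups overlapped, and the means of 8.29 ± 3.75 and 11.7 ± 3.92 FPKM (SD, n = 3) differed by less than the spread within either group. Between libraries of the same number the knockout level was 1.22, 1.63 and 1.52 times that of the control. Hdc is also known to be expressed by macrophages and neutrophils, and it was the member with the most reads in every knockout library.

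In order of level per length, the control means ran from Tpsb2 through Cma1, Hdc, Cpa3, Mcpt4, Kit and Fcer1a to Ms4a2. Neighbours in this order from Tpsb2 to Cpa3 had overlapping libraries, as did Kit and Fcer1a, whereas every library of Cpa3 was above every library of Mcpt4 and every library of Mcpt4 was above every library of Kit. In the knockout libraries Hdc stood above every other member, at 11.7 FPKM against at most 0.783 FPKM in any library for the rest.

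On the log2(FPKM + 1) scale, a limma fit was made on the 9030 genes that reached 1 FPKM in a group mean. Of the 8 genes, 6 passed this filter on low values, and Fcer1a and Ms4a2 did not. The fitted knockout-minus-control differences were -2.70 for Cpa3 (SE 0.12), -2.93 for Cma1 (SE 0.15), -3.26 for Tpsb2 (SE 0.19) and -2.46 for Mcpt4 (SE 0.15), -0.90 for Kit (SE 0.21) and 0.47 for Hdc (SE 0.35). The scale understates the fold of low genes, since a knockout level near 0 is lifted by the added 1. Past the threshold of 0.05 on the adjusted p were 5 of the 6, all lower in the knockout libraries, beside 4.74% of all genes tested. By the level in each library, 7 of 8 members had every knockout library below every control library, beside 21.3% of the 15415 listed genes. The members were chosen on this contrast, so nothing is read from either count. The 4 proteases and Kit passed the filter through their control means alone. Kit was no longer past the threshold with the replicate number as a block, without the filter, or when knockout library 1, 2 or 3 or control library 2 was left out.

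Shared sequence could move reads between a member and a near copy, and the counting is not given in the sources used here. Of the 50-base windows of each member's longest coding transcript, those also found in a transcript of another gene came to 5.38% for Cma1, 5.48% for Mcpt4 and 2.69% for Ms4a2, and to 0 for the other members. For Mcpt4 the copies were Cma2 and Mcpt9, neither of which is listed in the table. Tpsb2 shared no such window with its neighbour Tpsab1, which is not listed either.

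A further 47 genes with roles in mast cells, arranged in 6 lists, were read in the same fit. In all, 37 were listed and 22 passed the filter, and of these 3 were lower (Il1rl1, Tph1 and Inpp5d), 2 were higher (Ndst2 and Hpgds) and 17 did not pass the threshold. The shares called among all genes tested were 4.74% lower and 2.57% higher. Il1rl1 and Tph1 were below 1 FPKM in the knockout mean and passed the filter through the controls alone, so the count of lower genes is not read against that share. The median log2 fold change was 0.11 over the 22 genes and -0.11 over all genes tested. Many of the tested genes, such as Fcer1g, Srgn, Lyn and Syk, are also used by macrophages, which made up the bulk of these preparations by label.

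Among granule proteases other than the members, 3 of 10 were listed, and only Gzmb was tested. Gzmb, granzyme B, which lymphocytes also make, had a log2 fold change of -0.75 (limma, SE 0.35, adjusted p = 0.212), with overlapping groups. The controls were at 1.99, 1.10 and 0.0548 FPKM, and only control library 3 lay within the knockout range. The log2 fold change was -1.16 without control library 3 (limma adjusted p = 0.0093) and -0.41 without control library 1 (limma adjusted p = 0.340). Prss34, a tryptase of mast cells and basophils, gave 4, 5 and 11 reads in control libraries 1 to 3 and 0, 0 and 1 in knockout libraries 1 to 3. Ctsg, cathepsin G, gave 3, 7 and 2 reads against 0, 1 and 0. Both had every knockout library below every control library on a handful of reads.

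Among receptors, 9 of 9 were listed and 3 were tested, of which 1 was past the threshold. Il1rl1, the receptor for the alarmin Il33 on mast cells and some lymphocytes, was at 0.605, 1.23 and 1.48 FPKM in control libraries 1 to 3 and at 0.169, 0.118 and 0.193 FPKM in knockout libraries 1 to 3. It fell by 0.84 on the log2(FPKM + 1) scale (limma, SE 0.18, adjusted p = 0.036), a 6.90-fold difference of mean FPKM with no overlap. Il1rl1 entered the test through its control mean alone, and without the filter its call was lost (adjusted p = 0.053, in a range of 0.023 to 0.156 over its alternatives). Fcer1g, the signalling gamma chain that FcεRI shares with the IgG receptors of macrophages, was at 993 FPKM in the knockout mean and 904 FPKM in the control mean (log2 fold change 0.15, SE 0.16, limma adjusted p = 0.564). Csf2rb, the shared beta chain of cytokine receptors, was at 149 and 116 FPKM (log2 fold change 0.36, SE 0.16, limma adjusted p = 0.191). Within FcεRI, then, the IgE-binding alpha chain was close to absent in the knockout libraries while the gamma chain was among the abundant transcripts of both groups.

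The receptors below the filter included the Mas-related receptors, through which peptides and drugs activate connective tissue mast cells. Mrgprb1 gave 50, 81 and 93 reads in control libraries 1 to 3 and 7, 3 and 5 in knockout libraries 1 to 3, a 16.4-fold difference of mean FPKM. Mrgprb2 gave 5, 11 and 14 reads against 0 in each knockout library, and a count of 0 allows up to 3 reads. Il9r, the receptor for the mast cell growth factor Il9, gave 130, 99 and 71 reads against 21, 6 and 7, a 9.60-fold difference. These 3 genes had every knockout library below every control library. Enpp3, an ectoenzyme of mast cells and basophils, went the other way, with 0, 0 and 1 reads in the controls and 3, 9 and 3 in the knockout libraries. Cd200r3, a basophil and mast cell receptor, overlapped between the groups at 9, 15 and 30 against 1, 8 and 10 reads, as did Adora3 at 5, 13 and 7 against 4, 6 and 6 reads.

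Of the genes for amines, proteoglycan and lipid mediators, 7 of 8 were listed and 6 were tested, with 1 lower and 2 higher. Tph1, the first enzyme of serotonin synthesis, which peritoneal mast cells are known to use, was at 0.992, 1.44 and 1.52 FPKM in control libraries 1 to 3 and at 0.0753, 0.0234 and 0.0483 FPKM in knockout libraries 1 to 3. It fell by 1.14 on the log2(FPKM + 1) scale (limma, SE 0.13, adjusted p = 0.0096), and its mean FPKM differed 26.9-fold, a size within the counting intervals of Cpa3, Tpsb2 and Mcpt4. Slc18a2, the transporter that loads amines into granules, was untested at 16, 29 and 23 reads against 1, 1 and 2, an 18.5-fold difference of mean FPKM. Tph1, too, entered the test through its control mean alone, and without the filter its adjusted p was 0.014, in a range of 0.0052 to 0.080 over its alternatives. The amine pathway thus held genes that followed the proteases, Tph1 and Slc18a2, beside Hdc, which did not.

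Ndst2, which sulphates heparin, and Hpgds, the prostaglandin D synthase of haematopoietic cells, were higher in the knockout libraries. Ndst2 was at 13.8 ± 2.06 against 7.87 ± 1.43 FPKM (SD, n = 3; log2 fold change 0.74, SE 0.17, limma adjusted p = 0.046), and Hpgds at 5.57 ± 1.36 against 1.61 ± 0.813 FPKM (log2 fold change 1.36, SE 0.26, limma adjusted p = 0.029). Both genes had every knockout library above every control library, and macrophages express both. The call of Ndst2 was lost on rescaling by the median of ratios (adjusted p = 0.055) and with voom on the recovered reads (adjusted p = 0.057), as part of a range from 0.034 to 0.203 over its alternatives. Srgn, the core protein that carries heparin in the granule and is also made by macrophages, was at 169 and 156 FPKM (log2 fold change 0.14, SE 0.19, limma adjusted p = 0.667). Alox5 and Ltc4s, of leukotriene synthesis, had log2 fold changes of -1.01 (limma adjusted p = 0.084) and 0.49 (limma adjusted p = 0.214).

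In IgE receptor signalling, 11 of 11 genes were listed and 10 were tested, of which 1 was past the threshold. Inpp5d, the inositol phosphatase that restrains this pathway in mast cells, macrophages and B cells alike, was at 8.77, 6.05 and 5.75 FPKM in control libraries 1 to 3 and at 1.64, 1.93 and 3.10 FPKM in knockout libraries 1 to 3. It fell by 1.29 on the log2 scale (limma, SE 0.22, adjusted p = 0.020). The kinases and adaptors downstream of the receptor did not pass the threshold. Among them Lcp2 was at 194 and 175 FPKM in the knockout and control means (limma adjusted p = 0.485), Syk at 80.5 and 78.4 FPKM (0.830), Lyn at 63.0 and 57.1 FPKM (0.550) and Plcg2 at 22.7 and 28.5 FPKM (0.305). Log2 fold changes of the 10 genes ran from -1.29 to 0.75.

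Of the 4 transcription factors, only Mitf was tested. Gata2, needed for mast cell identity, gave 41, 47 and 64 reads in control libraries 1 to 3 and 9, 9 and 6 in knockout libraries 1 to 3, a ratio of pooled reads of 6.92 (exact 95% interval 4.48 to 11.1) without overlap. Gata1 overlapped at 4, 10 and 22 against 6, 0 and 2 reads. Mitf, which macrophages also use, was at 17.0 ± 3.71 FPKM in the controls and 10.4 ± 0.885 FPKM in the knockout libraries (SD, n = 3; log2 fold change -0.64, SE 0.18, limma adjusted p = 0.075). Tal1 was higher in each knockout library than in any control, at 100, 185 and 102 against 67, 52 and 54 reads. Of the growth factors, 3 of 5 were listed, and their groups overlapped. Kitl, stem cell factor, was at 0.786 ± 0.288 and 1.38 ± 0.769 FPKM in the knockout and control means (limma adjusted p = 0.331), Il33 gave 20, 27 and 23 reads in the controls against 16, 103 and 55, and Il4 gave at most 5 reads in any library.

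The calls among these other genes rested on 3 libraries a group, and some were lost and others gained when a library was left out. Leaving out knockout library 1, knockout library 2 or control library 2 each left 0 of the 22 genes past the threshold in limma, with 8, 7 and 7 genes at an unadjusted p under 0.05, and all 5 calls were kept without control library 1. The calls of Il1rl1 and Ndst2 were lost without knockout library 3, and that of Ndst2 without control library 3. Gained were Mitf without control library 1 (limma adjusted p = 0.030) and Alox5 without knockout library 3 (limma adjusted p = 0.042). Without control library 3, Alox5, Gzmb and Lat2 were gained (limma adjusted p = 0.038, 0.0093 and 0.022). Without the filter the 6 genes past the threshold were Tph1, Inpp5d, Mrgprb1, Il9r, Slc18a2 and Gata2, all lower, while Il1rl1, Ndst2 and Hpgds were not past it.

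**Figure D3:**
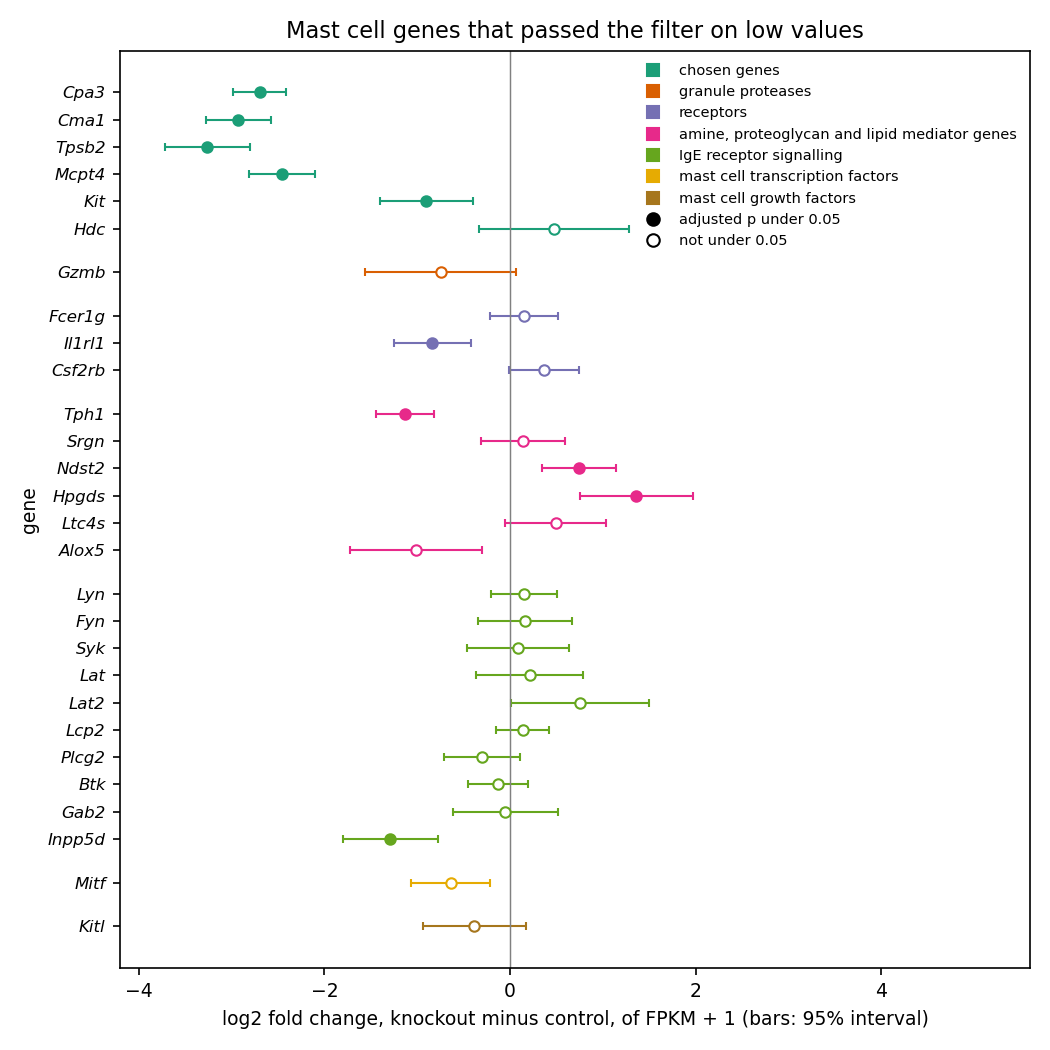
Log2 fold change of FPKM + 1 (knockout minus control, bars for 95% intervals) of the 6 tested members and the 22 other mast cell genes tested, coloured by role, with filled points for an adjusted p under 0.05. The 4 proteases lie between -3.26 and -2.46, the signalling genes other than Inpp5d lie between -0.30 and 0.75, and Ndst2 and Hpgds lie to the right.

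Markers of other cells were read in the same libraries, since mast cell genes were not alone in differing between the groups. The 8 members summed to 9.42 to 16.9 FPKM in the knockout libraries and 46.8 to 54.2 FPKM in the controls, a 3.68-fold difference of means, with 7 of 8 genes lower in every knockout library beside 21.3% of all listed genes. Most of the knockout sum was Hdc, and without it, a choice made after its values were seen, the sums were 1.89 to 2.27 and 38.2 to 49.3 FPKM. For B cells, 5 of 6 markers were lower in every knockout library and the sum was 11.0 to 11.9 against 32.9 to 125 FPKM. Most of that knockout sum was Cd22, the marker that overlapped, at 7.21 and 7.30 FPKM in the knockout and control means. The other 5 differed from 15.2-fold (Cd79a) to 24.4-fold (Pax5) in mean FPKM, so the 2 sums without Hdc and with Cd22 are not alike in make-up. The corresponding values for large peritoneal macrophages, the resident population, were 4 of 6 markers and 3.87 to 7.73 against 34.2 to 143 FPKM. The 4 were Timd4, Icam2, Prg4 and Garnl3, and Timd4, also part of the sum, is the targeted gene itself. The part of B cells and large peritoneal macrophages in the difference of the mast cell genes was not tested. Within the controls the mast cell sum, with or without Hdc, was highest in library 3, in which the B cell and large peritoneal macrophage sums were lowest, so the lists did not share their order there.

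Of the neutrophil markers, 3 of 5 listed were below in every knockout library (S100a8, Retnlg and Camp, while S100a9 and Ltf overlapped), with sums of 42.0 to 73.8 against 161 to 175 FPKM. Ly6g, Mpo and Elane were not listed. T cell markers were low in both groups, with 2 of 6 below and sums of 0.849 to 1.53 against 0.996 to 3.25 FPKM. The general macrophage markers summed to 2286 to 6957 against 8805 to 10657 FPKM, a difference carried by Lyz2, with 2 of 6 markers below. Markers of mesothelial cells and fibroblasts overlapped in their sums, at 12.1 to 34.4 against 2.13 to 13.1 FPKM, with 0 of 8 below. Beside all these counts stands the 21.3% of listed genes that were below in every knockout library.

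Basophils share several of the member genes, so their defining markers were checked, with those of eosinophils beside them. Mcpt8, which marks mouse basophils, was not listed, 1 of the 4 listed basophil markers was lower in every knockout library, and the sum was 0.0228 to 0.274 against 0.242 to 0.772 FPKM. For eosinophils, Epx, Prg2 and Prg3 were not listed, and the other 3 markers summed to 0.135 to 0.577 against 1.17 to 1.56 FPKM, with 2 of 3 below. The share of all listed genes below in this way was 21.3%, close to the 1 of 4 basophil markers. The part of either cell type in the levels of the member genes was not tested. Cpa3, Cma1, Tpsb2, Mcpt4 and Kit, which define connective tissue mast cells, each had reads in every control library, although the labels name macrophages alone.

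**Figure D4:**
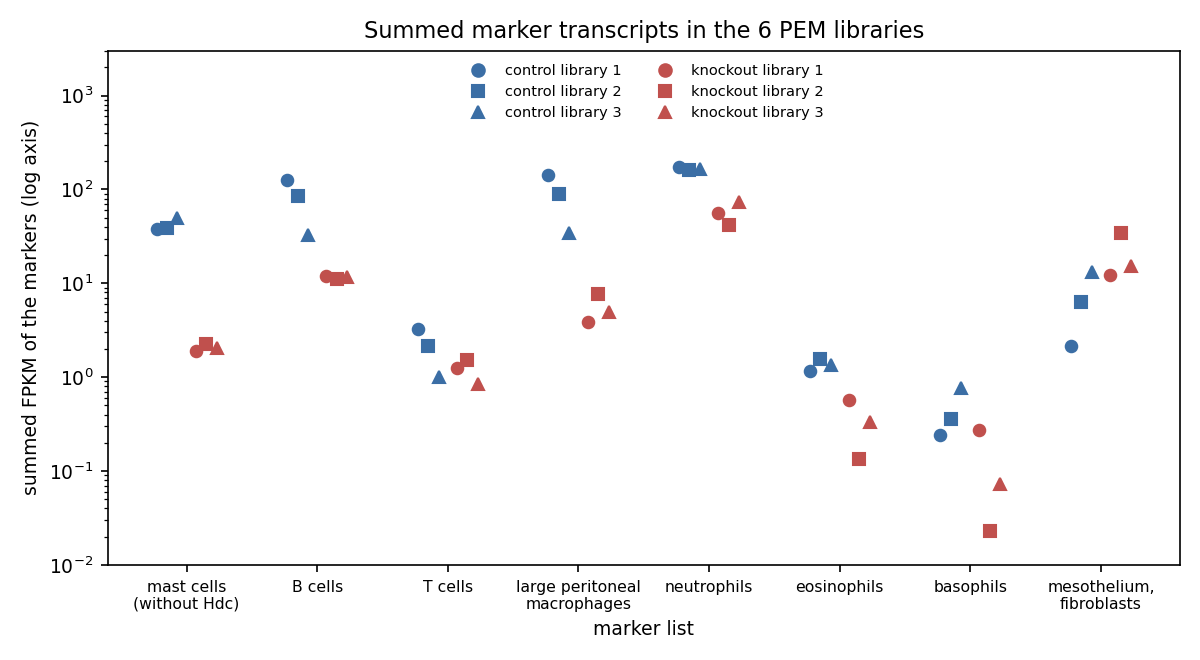
Summed FPKM (log axis) of the marker lists of 8 cell types in each control library (blue) and knockout library (red), 1 point per library. The B cell sum keeps Cd22, which overlapped between the groups and made up most of that sum in the knockout libraries. The mast cell sum without Hdc is 38.2 to 49.3 FPKM in the controls and 1.89 to 2.27 FPKM in the knockout libraries, and of the other lists drawn, which leave out the general macrophage markers, those of B cells, large peritoneal macrophages, neutrophils and eosinophils are also separated.

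The genes whose levels were most like the members over the 6 libraries were found by the Pearson correlation of log2(FPKM + 1) with the mean standardised profile of the 6 tested members. The members themselves correlated with this mean at 0.99 for Cpa3 and Mcpt4, 0.98 for Cma1 and Tpsb2, 0.87 for Kit and -0.37 for Hdc. The 10 other genes with the highest values, from 0.977 to 0.990, were Arhgap45, Cd24a, Mzb1, Afp, Ecpas, Jchain, Pinx1, Dusp5, Bag3 and Ttc19. Mzb1 and Jchain, which serve antibody secretion in plasma cells and some B cells, differed 52.6-fold (7.37 against 0.140 FPKM) and 43.9-fold (5.69 against 0.130 FPKM) between the control and knockout means, more than any tested member. The remaining 8 differed from 1.37-fold (Pinx1) to 5.19-fold (Afp). With 3 libraries in each group such a correlation mostly follows the step between the groups, which many listed genes share.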

How the data were processed

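The deposited table held FPKM per gene and library, made by the authors from reads per gene, gene length and counted reads. The signal columns deposited beside them are group means of reads divided by DESeq2 size factors, per the file headers. The authors' fold change, its log2 value and its p- and q-values were not used. The submitters' processing notes name the build mm9. The aligner, the counting and the annotation are not given in the sources used here. Genes with a mean under about 1 read were not listed.

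FPKM and the group means together gave back whole reads, and ratios of pooled reads have exact 95% intervals. FPKM was fitted as log2(FPKM + 1) with limma 3.58.1 (lmFit, eBayes with trend) in R 4.3.3, over 9030 genes reaching a group mean of 1 FPKM, with Benjamini-Hochberg adjustment and a two-sided threshold of 0.05. All adjusted p-values are from this fit unless another is named. An exact permutation test of 3 against 3 libraries cannot give a two-sided p below 0.1. The fit was also run on simulated reads that had the same spread setting for every gene. That run cannot show how the fit behaves on the spread between these libraries.

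The members and gene lists were chosen with earlier results of these data known. The genes named are the 8 members, the other mast cell genes past the threshold or highest in their list, defining genes near 0, near copies, Timd4, Lyz2 and the 10 genes most like the members. Some low genes of the lists (Adora3, Cd200r3, Tal1, Il33 and Il4) are named to account for the whole list.

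Deviations from the group means correlated at 0.11, 0.11 and 0.30 between libraries of the same number, and between -0.33 and 0.29 between others. The 0.29, of knockout library 2 with control library 1, was above the 0.11 of libraries 1 and of libraries 2. This check therefore does not settle whether the numbers pair the libraries, and no label says what a number shares. The main fit did not pair the libraries, and the replicate block served only as an alternative. Alternatives were no filter, a pseudocount of 0.1, the replicate number as a block, rescaling by the median of ratios, voom on the recovered reads, and each library left out in turn. Promoters were RefSeq's (GRCm38.p6) and transcripts GENCODE's. No coordinates of the deposited table were used.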

Additional observations from a re-analysis of the deposited data

How the results depend on the processing

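The members were chosen on this contrast, so their counts under the alternatives are a description and no sign of stability. The number of members past the threshold was 5, and 4 with the replicate block (a paired fit), without the filter and in 4 of the fits that left out a library (range 4 to 5), with Kit the gene lost. Beside these counts, the genes called lower among all genes tested were 428 of 9030, 503 with the replicate block, 305 of 15415 without the filter, and 7 to 765 with a library left out. The pseudocount of 0.1 and voom gave larger log2 differences for the low genes, at -4.23 and -4.46 for Cpa3 and -2.05 and -2.34 for Kit, by construction of the scale. The replicate block changed no other call among the mast cell genes.

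Over all genes, 660 were past the threshold (428 lower and 232 higher), 446 without the filter, 692 with the pseudocount of 0.1, 855 with the replicate block, 669 after rescaling by the median of ratios and 589 with voom. Rescaling shifted the median over all genes from -0.11 to 0.01 on the log2 scale and the share of higher calls from 35.2% to 51.3%, with 50.6% for voom. Leaving out a library gave 8 to 1278 genes, at 30 without knockout library 1, 63 without knockout library 2, 8 without control library 2 and 1278 without control library 3, beside 1448 to 2976 at an unadjusted p under 0.05. Among uncalled mast cell genes the sign turned under rescaling and under voom for Btk (0.012 and 0.013) and Gab2 (0.088 and 0.097), and with a library left out for Srgn (-0.023 to 0.31), Fyn (-0.037 to 0.37), Syk (-0.093 to 0.36), Lat (-0.028 to 0.39) and Gab2 (-0.25 to 0.22). For the other mast cell genes the count of 5 ranged from 0 to 7, at 0 without knockout library 1, knockout library 2 or control library 2 and 7 without control library 3. The cause was not tested. Depth limits Fcer1a, Ms4a2 and those other genes below the filter whose knockout levels rest on a few reads. This does not hold for Tal1, Plcg1 and Il33, at 100, 185 and 102, at 75, 82 and 100, and at 16, 103 and 55 reads in knockout libraries 1 to 3.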
